A study of Equus caballus with 10 samples.

Results

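The IL-6 family of cytokines and receptors was examined in equine tenocytes, the fibroblast-like cells of tendon, that were kept in collagen gels with or without the inflammatory cytokine IL-1β. Its members were chosen by gene name and comprised the ligands IL6, LIF, IL11 and CLCF1 and the receptor genes IL6R, IL11RA, IL6ST, LIFR and OSMR, 9 names in all. Of these, 8 were rows of the deposited table of 29196 genes, 4 ligands and 4 receptors, and IL11RA was not listed under that name. Primary tenocytes from adult horses, 5 donors in all, each gave 1 library to each of 2 groups, so 10 libraries were analysed. In the first group PF-06650833, a small molecule that inhibits the kinase IRAK-4, was added daily at 100 nM (PF-06650833 alone, below "inhibitor alone"). In the second group the same inhibitor was given in the same way together with 17 ng/ml IL-1β every 3 to 4 days (IL-1β plus PF-06650833, below "IL-1β and inhibitor"). Every culture therefore contained the inhibitor, the 3D culture lasted 14 days, and libraries without the inhibitor were not analysed here. The cells were expanded over several passages from the superficial digital flexor tendon before they were set in gels, so they model isolated tenocytes and not whole tendon.

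Cytokines of this family are secreted proteins that with few exceptions signal through gp130, the protein encoded by IL6ST. IL-6 and IL-11 first bind their own receptors, encoded by IL6R and IL11RA, which then recruit gp130. LIF brings gp130 together with the LIF receptor, encoded by LIFR, and oncostatin M (OSM) can bring it together with the receptor encoded by OSMR. CLCF1 acts through the CNTF receptor, gp130 and LIFR. The receptors activate Janus kinases and the transcription factor STAT3, and SOCS3 is a STAT3 target that damps the signal. IL-1β is a classical inducer of IL-6 in fibroblasts and acts through MyD88, IRAK-4 and NF-κB.

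The libraries held between 26672336 and 36093461 estimated reads on genes. Expression is given as the deposited variance-stabilized log2 value, where 3.43 stands for 0 reads, and log2 fold changes are IL-1β and inhibitor against inhibitor alone. These values are not adjusted for transcript length, so levels are compared between libraries and not between genes. All 8 genes used as a check of the IL-1β response were called higher, among them CXCL8, with a log2 fold change of 7.65. Of all tested genes 3.11% were called higher, and the check list was chosen with earlier results of these data known. Of 9 tested tenocyte markers SCX, MKX, COMP and TNC were called lower and 0 were called higher, beside 3.57% of all tested genes called lower. With the donor as a replicate block, where 8.26% of all tested genes were called in either direction, 6 of these markers were called lower. COL1A1 (log2 fold change -1.38, block adjusted p = 0.0147 from limma) and COL1A2 (-1.28, block adjusted p = 0.0169), lower in 5 of 5 donors, were then called too. DCN went the other way, higher in 5 of 5 donors with a log2 fold change of 1.01, and was not called (block adjusted p = 0.0529 from limma). TNMD (tenomodulin) was listed at the value of 0 reads in all 10 libraries. The tenocyte list summed to 892400 to 1478900 normalized counts with inhibitor alone and to 238970 to 997900 with IL-1β and inhibitor. COL1A1 and COL1A2 had the highest median counts of the list in both groups. Of 10 leukocyte markers 3 could be tested and 0 were called by limma with or without the replicate block, while the count at an unadjusted p below 0.05 was 0 without the block and 2 with it. These were CD14, with a log2 fold change of 2.66, and FCER1G, with 0.44, each higher with IL-1β in 4 donors and lower in 0 (adjusted p = 0.106 for both with the block, limma). AIF1, TYROBP and CD3E were at 0 in all 10 libraries, PTPRC was at 0 in 4 libraries of inhibitor alone and in 5 of the other group, and the summed normalized count of the list was 1.33 to 1678 with inhibitor alone (median 30.4) and 2.27 to 1723 with IL-1β (median 726), most of it CD14 where it was high. Endothelial markers summed to 16.3 to 51.5 normalized counts with inhibitor alone and to 5.12 to 30.7 with IL-1β. Of 5 tested genes 0 were called by limma, with or without the replicate block. PECAM1 (log2 fold change 0.67) and TEK (0.51) had an unadjusted p below 0.05 without the block, and CLDN5 (-0.53) and VWF (-0.73) with it. Of 6 tested mural cell markers RGS5 and CSPG4 were called lower and 0 higher, beside 3.57% of all tested genes called lower. NOTCH3 (log2 fold change -0.61) and MYH11 (-0.56) were not called, and neither were MCAM (0.34) and ABCC9 (1.02), which went the other way. The list summed to 3847 to 36499 normalized counts with inhibitor alone and to 4838 to 13479 with IL-1β. MYH11 had the highest median count of the list in both groups, 13063 and 4826. The part of these cell types in the results below was not tested, and in bulk RNA fewer cells of a type and less RNA per cell cannot be told apart.

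In cells that all received the inhibitor, the 4 ligand genes rose with IL-1β, and of the 4 receptor genes IL6ST fell and 3 were not differentially expressed. A gene was called differentially expressed at an adjusted p below 0.05 from limma together with a log2 fold change of 1 or more in either direction, in a fit over all 17992 genes that were detected in at least 5 libraries. All 8 members found in the table passed that filter. Of the 8, 5 were called, beside 6.68% of all tested genes. Of all tested genes 3.11% were called higher and 3.57% lower, against 4 and 1 of the members. The members had a median log2 fold change of 0.82 against -0.01 over all tested genes. The groups did not overlap for 4 of the 8 members, the ligands, beside 12.7% of all tested genes. With the donor as a replicate block, where 8.26% of all tested genes were called, the same 5 members were called.

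**Figure D1:**
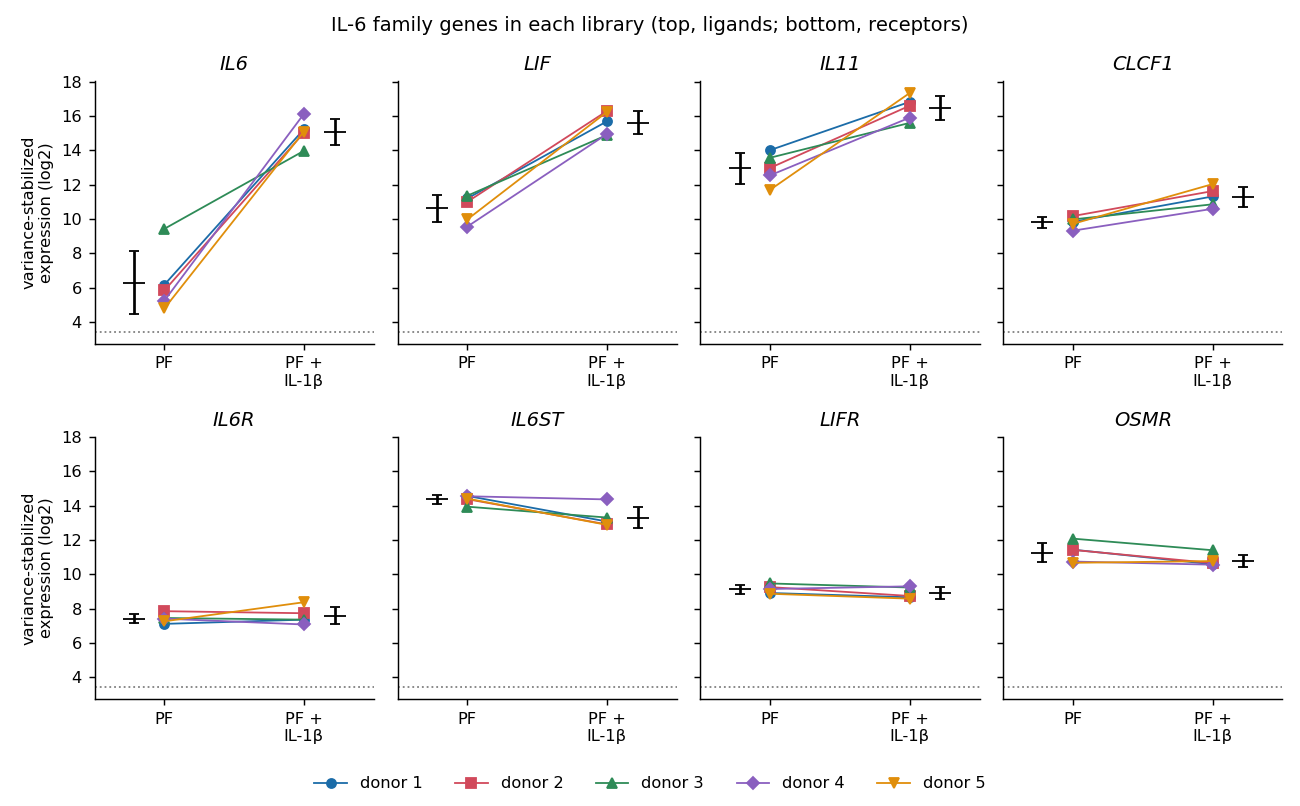
Variance-stabilized log2 expression (y axis) of the 8 IL-6 family genes in each library, with inhibitor alone (PF) on the left of each panel and IL-1β and inhibitor on the right; a line joins the libraries of a donor, black bars give the mean ± SD of 5 libraries, and the dotted line is the value of 0 reads. The 4 ligand panels show groups that do not overlap, while in the receptor panels the groups overlap, with IL6ST of donor 4 staying at 14.37 with IL-1β.

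IL6, the gene of the cytokine that gives the family its name, had the largest log2 fold change of all 17992 tested genes. With inhibitor alone its log2 expression was 6.16, 5.83, 9.42, 5.24 and 4.78 in donors 1 to 5, and with IL-1β and inhibitor it was 15.22, 15.02, 13.96, 16.12 and 15.09. Without IL-1β donor 3 lay far above the other donors, and with IL-1β the same donor had the lowest value. The libraries of inhibitor alone held few IL6 reads, an estimated 10 in donor 5, 18 in donor 4, 28 in donor 2 and 45 in donor 1, against 509 in donor 3. With IL-1β the estimates ran from 13853 reads in donor 3 to 50542 in donor 4. The mean log2 expression was 6.29 ± 1.83 (SD, n = 5) without IL-1β and 15.08 ± 0.77 (SD, n = 5) with it, and the log2 fold change was 8.79 (SE 0.75, adjusted p = 0.000107 from limma). Variance stabilization compresses differences at low counts, and the ratio of normalized counts within a donor was 24.0 in donor 3, 738 and 888 in donors 1 and 2, and 3424 and 3703 in donors 5 and 4. Leaving out the library of donor 3 with inhibitor alone raised the log2 fold change to 9.58, with an adjusted p of 2.42e-06 from limma.

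LIF, which encodes leukemia inhibitory factor, was already expressed without IL-1β and rose in all 5 donors. Its log2 expression was 11.19, 10.99, 11.35, 9.55 and 9.97 with inhibitor alone, and 15.68, 16.28, 14.88, 14.94 and 16.23 with IL-1β and inhibitor, in donors 1 to 5. Donors 4 and 5 were lowest without IL-1β, and donors 3 and 4 were lowest with it. The log2 fold change was 4.99 (SE 0.40, adjusted p = 7.98e-05 from limma), or 31.8-fold with a 95% confidence interval of 17.2 to 58.7. It ranked at place 19 among the increases of all tested genes.

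IL11, the gene of a cytokine linked to fibroblast activation and matrix production, also rose in all 5 donors. With inhibitor alone its log2 expression was 14.01, 12.97, 13.56, 12.54 and 11.70, and with IL-1β and inhibitor it was 16.82, 16.59, 15.59, 15.90 and 17.34, in donors 1 to 5. Donor 5 moved from the lowest value of the first group to the highest of the second. The log2 fold change was 3.49 (SE 0.44, adjusted p = 0.000701 from limma), or 11.2-fold with a 95% confidence interval of 5.74 to 22.1. The ratio of normalized counts within a donor ran from 4.09 in donor 3 to 50.1 in donor 5.

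CLCF1, the gene of cardiotrophin-like cytokine factor 1, had the smallest rise of the 4 ligands. Its log2 expression was 9.83, 10.17, 9.97, 9.32 and 9.72 with inhibitor alone, and 11.31, 11.62, 10.85, 10.59 and 12.03 with IL-1β and inhibitor. The highest value of the first group, in donor 2, lay under the lowest of the second, in donor 4. The log2 fold change was 1.48 (SE 0.26, adjusted p = 0.00382 from limma), or 2.79-fold with a 95% confidence interval of 1.88 to 4.13. Summed over the 4 ligands, these transcripts made up 0.0136% to 0.0539% of the normalized counts of a library with inhibitor alone and 0.283% to 0.773% with IL-1β and inhibitor.

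The changes of the ligands followed the same order in every donor. In 5 of 5 donors the log2 change was largest for IL6, then LIF, then IL11, then CLCF1. Donor 3 had the smallest change of all 4 ligands, with 4.54 for IL6, 3.53 for LIF, 2.03 for IL11 and 0.88 for CLCF1. Donor 5 had the largest change of 3 of them, with 6.26 for LIF, 5.64 for IL11 and 2.31 for CLCF1, while IL6 changed most in donor 4, by 10.88. Over the 560 genes called higher in the whole table, the median change was also smallest in donor 3, at 1.37, against 1.68 to 1.83 in the other donors. The difference between IL6 and IL11, taken within each library, tests whether these ligands changed unequally, since a scaling of a library largely cancels in it. Its level is not adjusted for length and only its change is read. It was -6.67 ± 1.45 (SD, n = 5) on the log2 scale with inhibitor alone and -1.37 ± 0.93 (SD, n = 5) with IL-1β and inhibitor. The change of 5.30 was upward in 5 of 5 donors (p = 0.00794 and adjusted p = 0.0238 over 3 such differences, exact two-sided permutation test). A p of 0.00794 is the smallest this test can give here. Taken as pairs within donors, an exact sign-flip test gave the smallest p that 5 pairs allow, which lies above 0.05 (adjusted p = 0.188).

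**Figure D2:**
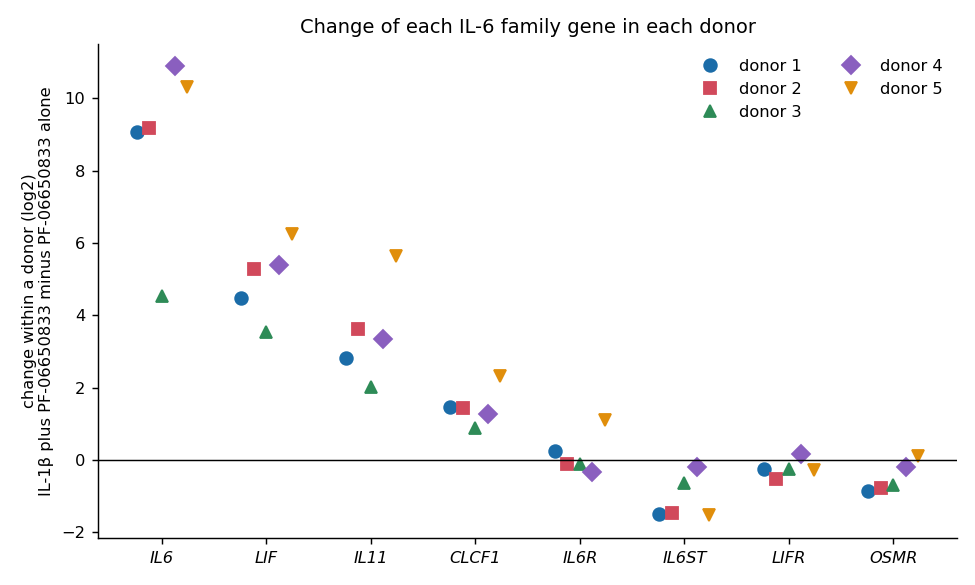
Change in log2 expression within each donor (y axis, IL-1β and inhibitor minus inhibitor alone) for the 8 genes (x axis), with a symbol and color for each of 5 donors and a line at no change. Donor 3 is the lowest of the 5 points for IL6, LIF, IL11 and CLCF1, and for IL6ST the points run from -1.53 in donor 5 to -0.18 in donor 4.

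IL6ST encodes gp130, the receptor subunit that most of the family shares, and its transcript was lower in 5 of 5 donors. With inhibitor alone its log2 expression was 14.57, 14.38, 13.95, 14.55 and 14.42, and with IL-1β and inhibitor it was 13.08, 12.92, 13.32, 14.37 and 12.89, in donors 1 to 5. The groups overlapped because donor 4, at 14.37 with IL-1β, lay within the range of the first group. The log2 fold change was -1.06 (SE 0.26, 95% confidence interval -1.64 to -0.48, adjusted p = 0.0200 from limma), close to the minimum of 1 for a call. In normalized counts the level with IL-1β was 0.346 to 0.361 of that without it in donors 1, 2 and 5, 0.645 in donor 3 and 0.880 in donor 4. Leaving out the IL-1β library of donor 4 gave a log2 fold change of -1.32 (adjusted p = 0.000567 from limma). Of 15 leave-one-out fits, 6 no longer called IL6ST, those without the IL-1β library of donor 1, 2 or 5 or without all libraries of one of these donors, with log2 fold changes from -1.003 to -0.944. Without all libraries of donor 1 the adjusted p from limma was 0.111.

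IL6R, LIFR and OSMR, the other receptor genes found in the table, were not differentially expressed. IL6R encodes the receptor that binds IL-6 before gp130 joins. Its log2 expression was 7.12, 7.86, 7.46, 7.42 and 7.27 with inhibitor alone and 7.37, 7.74, 7.37, 7.09 and 8.38 with IL-1β and inhibitor. The groups overlapped, with donor 5 highest in the second group, and the log2 fold change of 0.16 had a 95% confidence interval of -0.39 to 0.71 (adjusted p = 0.727 from limma). The estimated reads of IL6R ran from 82 to 268 per library. Without the IL-1β library of donor 5 its log2 fold change was -0.038.

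LIFR encodes the receptor chain for LIF. Its log2 expression was 8.92, 9.26, 9.48, 9.15 and 8.87 with inhibitor alone and 8.67, 8.75, 9.24, 9.31 and 8.59 with IL-1β and inhibitor. The value was lower with IL-1β in 4 of 5 donors and higher in donor 4, and the log2 fold change of -0.23 had a 95% confidence interval of -0.62 to 0.17 (adjusted p = 0.451 from limma). OSMR encodes the receptor chain for OSM. Its log2 expression was 11.44, 11.43, 12.08, 10.75 and 10.68 with inhibitor alone and 10.59, 10.66, 11.41, 10.57 and 10.78 with IL-1β and inhibitor. Donor 3 had the highest OSMR value of each group. OSMR was lower with IL-1β in 4 of 5 donors, and its log2 fold change of -0.47 had a 95% confidence interval of -1.05 to 0.10 (adjusted p = 0.259 from limma). With the replicate block the interval was -0.82 to -0.13, and the adjusted p from limma was 0.0588.

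**Figure D3:**
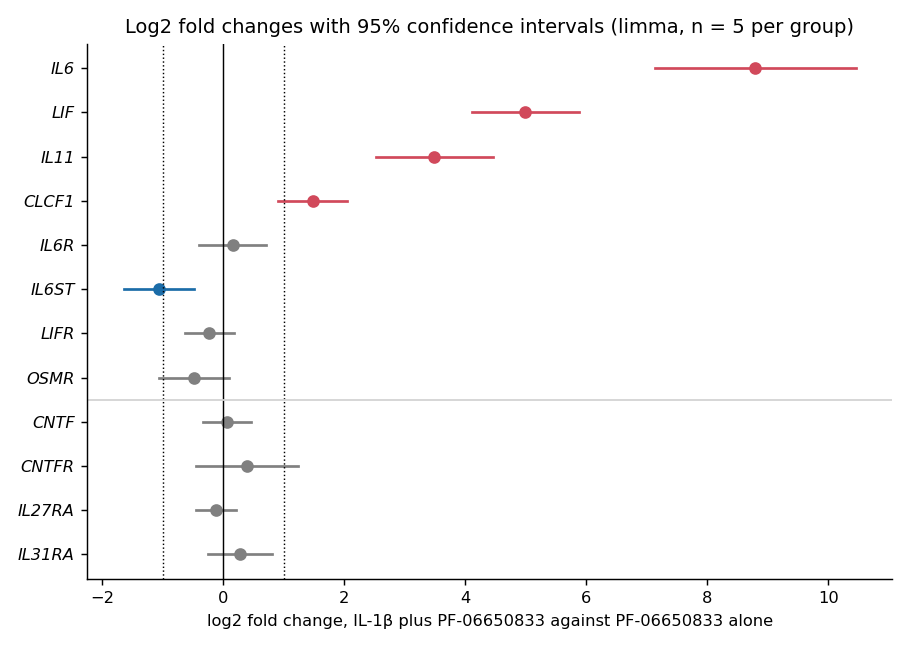
Log2 fold change (x axis) with 95% confidence interval from limma, n = 5 libraries per group, for the 8 members above the grey line and 4 other tested family genes below it; red points were called higher, blue lower and grey not called, and dotted lines mark the minimum change of 1. The 4 ligands lie between 1.48 and 8.79, IL6ST lies at -1.06, and the other points lie between -0.47 and 0.40.

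The balance between receptor genes was compared for 2 pairs within libraries. IL6R minus IL6ST sets the receptor for IL-6 against the shared subunit. It was -6.95 ± 0.43 (SD, n = 5) on the log2 scale with inhibitor alone and -5.73 ± 1.03 (SD, n = 5) with IL-1β and inhibitor. The change of 1.22 was upward in 4 of 5 donors and did not pass after adjustment (exact two-sided permutation test, p = 0.0476, adjusted p = 0.0714 over 3 differences), while without the IL-1β library of donor 4 it was 1.61 with an adjusted p of 0.0238 from the same exact test. OSMR minus LIFR sets against each other the receptor chains that OSM and LIF use. It was 2.14 ± 0.44 (SD, n = 5) and 1.89 ± 0.38 (SD, n = 5), a change of -0.25 that went downward in 4 of 5 donors (exact two-sided permutation test, p = 0.373, adjusted p = 0.373). The changes of OSMR minus LIFR within a donor ran from -0.60 to 0.38.

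Of 9 further ligands and receptors of the family, 8 were listed (CTF1 was not), 4 could be tested and 0 were called by limma, with and without the replicate block. The count at an unadjusted p below 0.05 was also 0. Whether these genes differ from the 4 called ligands was not tested. IL27, EBI3 and IL31 were listed at the value of 0 reads in all 10 libraries. OSM, the ligand of OSMR, was at 0 reads in 4 libraries of inhibitor alone and in 2 with IL-1β, and its highest log2 value was 4.47. OSM is the direct chromosomal neighbor of LIF in the horse, with 0 annotated genes between them on the RefSeq assembly TB-T2T. CNTFR, the receptor gene for CNTF and CLCF1, was near the limit of detection, with log2 values from 3.43 to 5.86. CNTF, which encodes ciliary neurotrophic factor, had a log2 fold change of 0.07 (95% confidence interval -0.33 to 0.46).

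Downstream of gp130, 1 of the 17 tested signal transduction genes reported here was called, or 5.88%, beside 6.68% of all tested genes. The median log2 fold change over the 17 was 0.06. SOCS2, an inhibitor of cytokine signaling, fell from 11.54 ± 0.44 (SD, n = 5) to 10.20 ± 0.26 (SD, n = 5), with a log2 fold change of -1.34 (adjusted p = 0.00184 from limma). STAT3, SOCS3 and PTPN11 passed the adjusted p but not the minimum fold change. SOCS3 was higher in 5 of 5 donors with a log2 fold change of 0.54 (adjusted p = 0.0194 from limma), and STAT3 was lower in 5 of 5 donors with -0.49 (adjusted p = 0.0134). JAK1, the kinase bound to gp130, differed by 0.02 (adjusted p = 0.899 from limma).

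Of 17 tested target genes of gp130 and STAT3, 6 were called, beside 6.68% of all tested genes. Of the targets 5 were called higher and 1 lower, beside 3.11% and 3.57% of all tested genes, and their median log2 fold change was 0.41. Most of these targets also respond to other signals. CEBPB, a transcription factor of the acute-phase response, rose 2.82-fold (adjusted p = 0.000186 from limma). On the log2 scale SAA1, which encodes the acute-phase protein serum amyloid A, rose by 4.18 (adjusted p = 0.0154) and IRF1, the gene of an interferon regulatory factor, rose by 1.74 (adjusted p = 0.0189). TIMP1, which encodes an inhibitor of metalloproteinases, and VEGFA, which encodes a vascular growth factor, rose by 1.31 and 1.18. The groups overlapped for SAA1, IRF1, TIMP1, VEGFA and LRG1, and reads of SAA1 may be shared with other serum amyloid A genes. LRG1, which encodes a secreted leucine-rich glycoprotein, fell by 2.24 (adjusted p = 0.0274), with few reads and 1 library at 0 with IL-1β. HIF1A (0.70, adjusted p = 0.0125, groups not overlapping) and PIM1 (-0.54, adjusted p = 0.0440) passed the adjusted p from limma but not the minimum log2 fold change. The other uncalled targets had log2 fold changes between -0.18 for MYC and 0.94 for CCND1.

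Of 15 genes that control IL6 transcription or the stability of its mRNA, 4 were called, all higher, beside 3.11% of all tested genes. The median log2 fold change over the 15 was 0.15. ZC3H12A encodes Regnase-1, a nuclease that degrades IL6 mRNA, and rose from 9.25 ± 0.30 (SD, n = 5) to 12.29 ± 0.37 (SD, n = 5), with a log2 fold change of 3.04 (limma, adjusted p = 1.78e-05). NFKBIZ, which encodes a nuclear IκB protein needed for IL6 induction, rose by 2.92 (adjusted p = 7.29e-05). CEBPB, which is also in the list of targets, and the NF-κB subunit gene NFKB1, with a log2 fold change of 1.15, were the other two. The groups did not overlap for these 4 of the 15 genes, beside 12.7% of all tested genes. RELA, ARID5A, ZFP36, RC3H1 and HNRNPD were among the 11 genes that were not called. In a list of genes for receptor shedding, 0 of 4 tested genes were called by limma, with and without the replicate block, and 2 passed an unadjusted p below 0.05. Of these, ADAM10, a protease that can release the IL-6 receptor from the cell, had a log2 fold change of 0.49 (adjusted p = 0.00851 from limma), under the minimum.

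**Figure D4:**
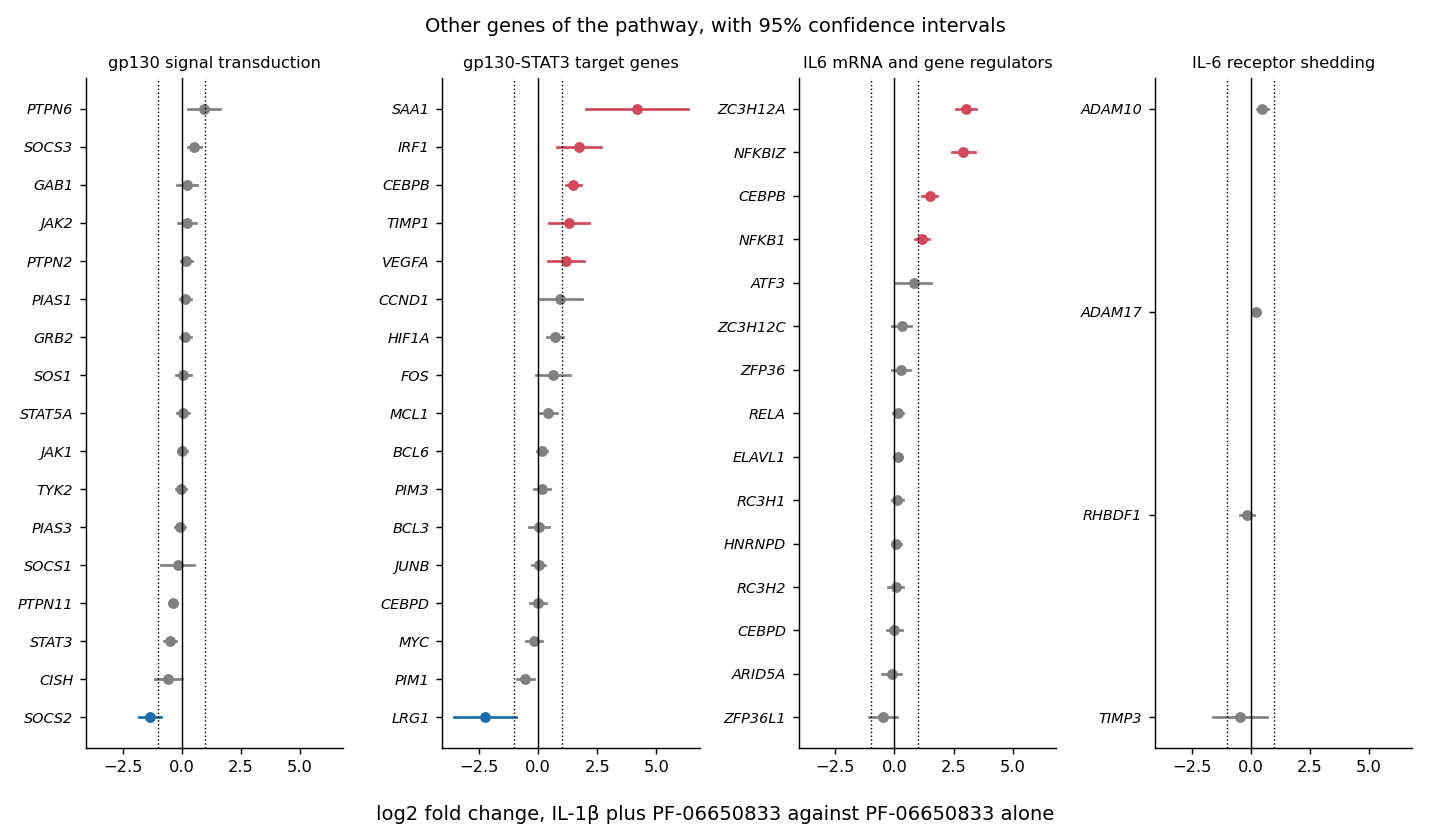
Log2 fold change (x axis) with 95% confidence interval from limma, n = 5 libraries per group, for the tested genes (y axis) of 4 lists around gp130; red points were called higher, blue lower and grey not called, and dotted lines mark the minimum change of 1. Left to right, called genes number 1 of 17, 6 of 17, 4 of 15 and 0 of 4, beside 6.68% of all tested genes. Most points of each list lie between the dotted lines.

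The genes most like each called member were found by the root mean square difference of log2 values over the 10 libraries, after each gene was centred on its own mean. As the groups differ in all of them, this likeness describes the shared contrast and the pattern of donors. For IL6 the nearest genes were the chemokine genes CXCL6 (0.637), CXCL2 (1.46) and CXCL1 (1.47), which are similar in sequence and may share reads. For LIF they were EDNRB, which encodes an endothelin receptor (0.494), IER3 (0.628) and LIPG (0.711). For CLCF1 they were NANOS3 (0.135), SLC20A1, which encodes a phosphate transporter (0.188), and ABHD3 (0.204), and for IL6ST they were BICC1 (0.184), GNB5 (0.187) and PAK3 (0.225). For IL11 the nearest gene was FAM71E2 (0.116), followed by SLC16A6 (0.598) and PLA2G4A (0.612).

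FAM71E2, taken here as the gene now named GARIN5B, is the next protein-coding gene to IL11 on the RefSeq assembly TB-T2T. Genes of other types between them were not looked at. Its log2 expression lay between 8.37 and 10.87 with inhibitor alone and between 12.24 and 13.94 with IL-1β and inhibitor, a log2 fold change of 3.36 (SE 0.44, adjusted p = 0.000893 from limma). IL11 minus FAM71E2 ran from 3.14 to 3.61 over the 10 libraries, a range of 0.467, while IL11 itself ranged over 5.64. Whether reads of one gene were counted for the other was not tested.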

How the data were processed

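Primary equine tenocytes of 5 donors were sequenced after 14 days in 3D culture, with 1 library per donor and group. According to the submitters' processing notes and the methods of the study, the authors checked reads with FastQC (version 0.11.9), assigned them to the EquCab3.0 transcriptome with Salmon (version 1.8) and GC-bias correction, and used tximport and DESeq2 (version 1.36). The authors deposited log2 values, normalized between libraries, and all 10 columns end at the same lowest value, 3.433. The values have the form of a variance-stabilizing transformation, which no source used here names. Normalized counts were obtained by inverting it, and reads per library were estimated from the spacing of low values, with 68.0% to 84.8% of low values within 0.15 of a whole read against 30% for even values.

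A linear model without a donor term was fitted in limma (version 3.58.1, under R version 4.3.3) to every gene detected in 5 or more libraries. Variances were moderated toward a trend on expression, and p-values were adjusted by Benjamini-Hochberg over all tested genes. Titles pair the libraries by donor. Deviations from the group means correlated across genes at 0.367 to 0.506 between libraries of a donor, and at -0.266 to 0.0869 between donors. Differences within libraries were tested by exact permutation. The difference of IL11RA and IL6ST had been planned and could not be formed. Alternatives were the replicate block, other scales, filters, normalizations, variance models and thresholds, and leaving out libraries or donors. Members, gene lists and tests were chosen with earlier results of these data known. The genes named are the members, those of short lists, up to 3 called genes per direction of each list with the smallest adjusted p, and the 3 genes most like each called member. STAT3, SOCS3, PTPN11, JAK1, ADAM10, NFKB1, TIMP1, VEGFA and the uncalled genes of longer lists, and all neighboring genes, were named after their values were seen. Neighbors were read from RefSeq genes of the TB-T2T assembly, whose coordinates differ from those of the authors' build and are not given. Some genes of these lists are not reported here, and counts are over the others. In the RefSeq annotation, 23397 gene names of the deposited file were found.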

Additional observations from a re-analysis of the deposited data

Results flagged for a closer look

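The screen covered the members, the other family genes, the up to 3 called genes per list and direction, and the genes most like a called member. It also covered the 3 within-library differences, while other genes named in the text were not screened. Of the 92 sets of 5 libraries screened, 11 held 1 library that stood apart, where chance gives about 1 in 20, or 4.6. Of these, 2 were values of members, both with IL-1β and inhibitor. IL6ST was at 14.37 in donor 4 against 12.89 to 13.32 in the others, and OSMR was at 11.41 in donor 3 against 10.57 to 10.78. The within-library difference of IL6 and IL11 stood apart in donor 3 with inhibitor alone (-4.14 against -7.85 to -6.92) and in donor 4 with IL-1β (0.22 against -2.25 to -1.58).

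Donor 3 also stood apart for CEBPB, at 13.25 against 12.67 to 12.82 with inhibitor alone and at 13.92 against 14.39 to 14.48 with IL-1β. In the same donor ZC3H12A was at 11.66 with IL-1β against 12.35 to 12.63, and GNB5 was at 10.82 with inhibitor alone against 11.34 to 11.43. SOCS2 was at 10.66 in donor 1 with IL-1β against 10.02 to 10.15. The last 2 rest on very few reads with inhibitor alone, with OSM at 3.94 in donor 2 against 3.43 and CNTFR at 3.43 in donor 1 against 4.09 to 4.33.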

How the results depend on the processing

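The 4 ligands were called in all 27 alternatives, and 4 to 5 members were called in the 15 leave-one-out fits. IL6ST was the member that lost its call, in 6 of these 15 fits and at an adjusted p below 0.01. IL6R, which was not called, changed sign without the IL-1β library of donor 5 (-0.038) and without donor 5 (-0.077), with a range of -0.077 to 0.29 over the same fits. The replicate block changed no call of a member. Over the whole table, 719 genes were called at an adjusted p below 0.01 and 2782 without a minimum fold change, against 1202, and 762 to 1422 in the leave-one-out fits, with 762 without donor 1, 790 without donor 2 and 777 without donor 5. The change of 5.30 in IL6 minus IL11 did not pass the exact sign-flip test of the replicate block (adjusted p = 0.188), which cannot reach 0.05 with 5 pairs, and it ranged from 4.91 to 5.94 when a library was left out. IL6R minus IL6ST ranged from 0.92 to 1.61 in those fits and passed in 1 of them, without the IL-1β library of donor 4. The causes of these changes were not tested. Depth limits the fold change of IL6, which rests on 10 to 45 estimated reads in 4 libraries of inhibitor alone.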

Other observations

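Genes beside IL11 and IL6 on the chromosome were also called, a pattern seen first for FAM71E2 and then looked up for the 3 protein-coding genes on each side of every member. Of the 6 neighbors of IL11, 4 were called, all higher, beside 6.68% of all tested genes. These were FAM71E2, TMEM238 (log2 fold change 2.12, adjusted p = 0.000133 from limma), TMEM190 (1.41, adjusted p = 0.00105) and LOC102149678, the gene of the cytochrome oxidase subunit COX6B2 (1.68, adjusted p = 0.00905). KMT5C, at 0.92, lay under the minimum fold change, and RPL28, a ribosomal protein gene, was at 0.13.

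Of the 4 neighbors of IL6 that could be tested, 3 were called, all higher, beside 3.11% of all tested genes. TOMM7, which encodes a subunit of the mitochondrial import complex, rose by 1.13 (adjusted p = 0.000972 from limma) and KLHL7 rose by 1.00 (adjusted p = 0.000769) on the log2 scale. RAPGEF5 was at the value of 0 reads in all 5 libraries of inhibitor alone, and its log2 expression with IL-1β was 4.67 ± 0.51 (SD, n = 5). RAPGEF5 therefore passed the detection filter only through the libraries with IL-1β, and its call could only be higher. Of 5 tested neighbors of LIF 1 was called, beside 6.68% of all tested genes, and this count is not read as a result. It was HORMAD2 (log2 fold change 1.30, adjusted p = 0.0209 from limma), a gene with few reads.

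Of the tested neighbors of CLCF1 0 of 6 were called, with log2 fold changes from -0.96 to 0.29. The counts were 0 of 4 for IL6R, 0 of 5 for IL6ST, 0 of 4 for LIFR and 0 of 3 for OSMR. Beside 6.68% of all tested genes, counts of 0 among so few genes are not read as a difference from the other members. CARNS1 beside CLCF1 (-0.96, adjusted p = 0.0110 from limma), ATP8B2 beside IL6R (-0.68, adjusted p = 0.00923) and SLC38A9 beside IL6ST (-0.42, adjusted p = 0.0267) missed only the minimum fold change. The counts of neighbors were not tested, and neither reads that run on from one gene into the next nor shared regulation was tested.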
